A study of Homo sapiens with 4 samples.

Results

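The genes described here are 10 of the 60662 genes in the count table: ISG15, the enzymes that attach and remove its product, and interferon-linked PARP genes with DTX3L. They were taken from the table by gene symbol, and all 10 had at least 1 count. They were chosen by pathway and by their KO and WT counts and fold changes in these same libraries, so the differences between groups given for them are a description and not an independent test. All libraries came from HAP1 cells, a near-haploid human line that descends from KBM-7, itself from chronic myeloid leukaemia, and the labels name no further treatment. The groups were MATR3 knockout (KO), with 1 library each from the purchased clones 1 and 5, and wild type (WT), with 2 libraries of the vendor's control line, clone 4. MATR3 encodes matrin 3, a nuclear protein that binds RNA and DNA, and the title of the series names cGAS-STING activation in its absence. Each KO line is 1 clone seen in 1 library, and nothing in the labels says that the WT libraries, A and B below, came from separate cultures, so a p-value reflects no more than how far these libraries differ, and that may be technical.

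ISG15 is a small ubiquitin-like protein that interferon induces in most cells. UBA7 activates it, UBE2L6 carries it, HERC5 is its main ligase in human cells, and USP18 takes it off substrates and also restrains signalling at the type I interferon receptor. PARP9 and DTX3L form a complex that joins an ADP-ribosyltransferase family protein to a ubiquitin ligase, and they are encoded head to head on chromosome 3. PARP14, PARP10 and PARP12 are mono-ADP-ribosyltransferases that interferon can induce as well.

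The libraries of KO clones 1 and 5 held 3121759 and 4024026 counts, against 3509906 in WT A and 5303199 in WT B. MATR3 does not check the labels here: its gene model ENSG00000015479 had 187 and 204 counts in the KO clones against 171 and 304 in WT, and the model listed as MATR3 had 27 and 37 against 41 and 43. These models share 5141 exonic bases, so reads may be split between them, and a small edit need not lower the count of a gene. Of 16 haematopoietic and immune markers 7 were at 0 counts in all 4 libraries, among them PTPRC, CD34 and SPI1. GATA2, TAL1, MYB and RUNX1 had counts in all 4 libraries, and a 0 in this table is not evidence of absence. The WT and KO columns carry different date tags, and the WT columns further carry the tags FACS and test, so date or handling and genotype cannot be told apart.

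The promoter windows of ISG15, PARP9, DTX3L, PARP14 and HERC5 are shown because the first 4 genes were higher in both KO clones than in both WT libraries and HERC5 was not. Each is a RefSeq window on GRCh38.p14 that runs from 250 bases before the gene's start to 50 after it. Capitals mark each match, on either strand, to GAAA followed by any 2 bases and a second GAAA, the core of the interferon-stimulated response element (ISRE). On the other strand the match reads TTTC, any 2 bases and TTTC, and matches may overlap.
ISG15, chr1:1013247-1013546, plus strand: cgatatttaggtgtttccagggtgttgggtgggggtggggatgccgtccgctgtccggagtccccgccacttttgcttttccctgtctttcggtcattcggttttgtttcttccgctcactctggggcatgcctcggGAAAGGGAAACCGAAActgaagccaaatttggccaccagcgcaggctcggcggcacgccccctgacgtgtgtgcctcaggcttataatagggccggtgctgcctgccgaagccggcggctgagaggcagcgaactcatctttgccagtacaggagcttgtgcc
PARP9, chr3:122564251-122564550, minus strand: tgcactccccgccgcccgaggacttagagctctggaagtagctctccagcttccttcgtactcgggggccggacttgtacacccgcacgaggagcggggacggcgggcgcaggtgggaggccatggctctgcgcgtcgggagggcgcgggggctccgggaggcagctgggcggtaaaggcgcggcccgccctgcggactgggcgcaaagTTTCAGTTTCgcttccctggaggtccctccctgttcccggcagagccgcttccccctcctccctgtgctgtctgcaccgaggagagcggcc
DTX3L, chr3:122564088-122564387, plus strand: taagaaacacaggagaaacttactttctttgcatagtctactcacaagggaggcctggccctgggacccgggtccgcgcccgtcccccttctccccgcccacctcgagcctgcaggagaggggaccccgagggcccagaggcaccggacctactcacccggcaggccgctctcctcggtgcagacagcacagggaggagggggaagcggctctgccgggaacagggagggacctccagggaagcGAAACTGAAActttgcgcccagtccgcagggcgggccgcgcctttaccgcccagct
PARP14, chr3:122680589-122680888, plus strand: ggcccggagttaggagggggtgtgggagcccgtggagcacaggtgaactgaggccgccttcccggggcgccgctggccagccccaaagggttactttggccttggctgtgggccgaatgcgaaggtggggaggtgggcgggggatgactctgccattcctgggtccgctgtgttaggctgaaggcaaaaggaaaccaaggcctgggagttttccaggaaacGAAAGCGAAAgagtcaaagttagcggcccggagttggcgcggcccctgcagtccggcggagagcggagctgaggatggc
HERC5, chr4:88456869-88457168, plus strand: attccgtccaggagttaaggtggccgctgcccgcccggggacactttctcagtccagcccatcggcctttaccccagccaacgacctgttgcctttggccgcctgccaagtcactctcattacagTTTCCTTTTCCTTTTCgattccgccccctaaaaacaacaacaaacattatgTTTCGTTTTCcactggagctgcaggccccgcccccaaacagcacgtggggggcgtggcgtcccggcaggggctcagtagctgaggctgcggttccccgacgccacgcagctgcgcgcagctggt

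ISG15 has 2 overlapping matches, which begin 113 and 107 bases before its start. PARP9 and DTX3L share a single match, at bases 122564332 to 122564341 of chromosome 3, which begins 6 bases before the start of DTX3L. Read from PARP9, the same match begins 41 bases before its start, and the windows of both genes have 137 bases in common. PARP14 has 1 match, 29 bases before its start, and also the only match among these genes to TTC, any 3 bases and GAA, the core of the gamma-activated sequence, which reads the same on both strands. HERC5 has 3 matches, of which 2 overlap, and PARP12 has 1. The 2 windows of UBE2L6 and the second, more distal window of PARP9 have none. RefSeq windows were matched for 7 of the 10 genes, those other than UBA7, USP18 and PARP10. Of all 35116 windows of 300 bases 3.57% hold an ISRE-type match and 7.66% a match of the other kind. The genes were picked as linked to interferon, so nothing is read from how many of them hold a match.

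**Figure D1:**
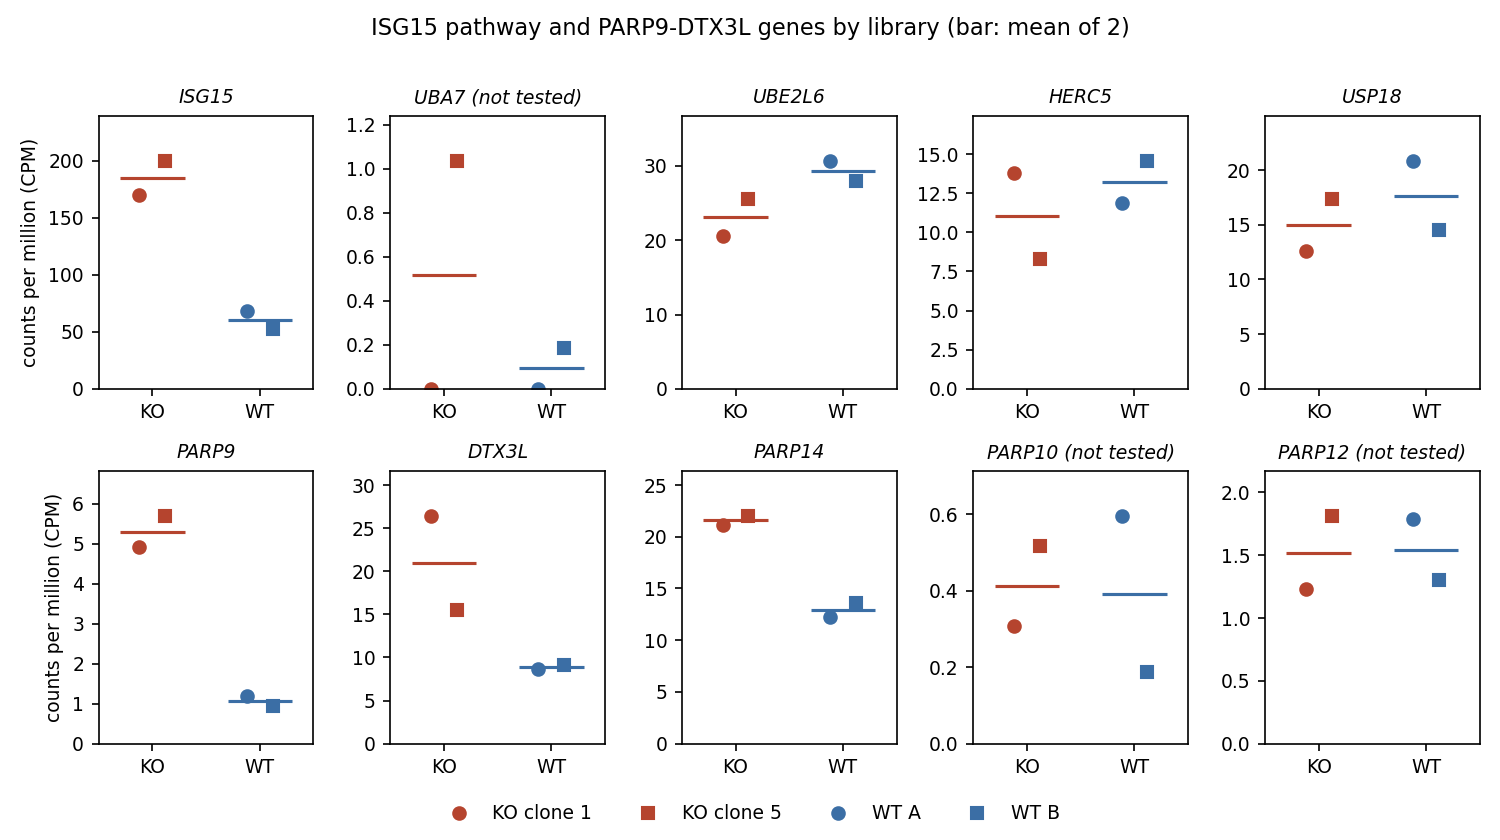
Counts per 1e6 of the scaled library total (CPM, linear axis from 0) of the 10 genes in the KO libraries (left, red) and the WT libraries (right, blue), with circles for KO clone 1 and WT A, squares for KO clone 5 and WT B, and a bar at the mean of each group. ISG15, PARP9, DTX3L and PARP14 lie higher in both KO libraries than in both WT libraries, and UBE2L6 lies lower.

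ISG15, the modifier itself, was 3.06-fold higher in the KO clones, while none of its 3 tested enzymes was called higher. KO clone 1 held 553 ISG15 counts and KO clone 5 held 772, against 230 in WT A and 283 in WT B. Both KO libraries lay well above both WT libraries. Scaled to library size as CPM, the count divided by the scaled library total times 1e6, its level was 185 ± 21.2 CPM in KO and 60.6 ± 11.1 CPM in WT (SD, n = 2 each). The log2 fold change was 1.61 (SE 0.28, 95% interval 1.01 to 2.21, edgeR quasi-likelihood test with Benjamini-Hochberg adjustment over all 10505 tested genes, adjusted p = 0.0116). Without WT B it was 1.41, with an edgeR adjusted p of 0.131; it passed without each of the other 3 libraries. In bulk RNA, where cells are pooled, more cells that express a gene and more RNA per cell cannot be told apart. The canonical transcript of ISG15 has 2 exons on chromosome 1, from 1013497 to 1014540 on hg38, and shares no exonic base with another gene of GENCODE 44.

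UBA7, the activating enzyme of ISG15, was at the limit of detection. KO clone 1 held 0 counts and KO clone 5 held 4, against 0 in WT A and 1 in WT B. Pooled over each group this is 0.562 CPM in KO (95% exact Poisson interval 0.153 to 1.44) and 0.115 CPM in WT (0.00290 to 0.639), and these intervals cover counting error only. The intervals overlap, so a difference was not detectable at this depth. UBA7 lies on chromosome 3, from 49805209 to 49813953, and was too low to be tested in the filtered fit.

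UBE2L6, the conjugating enzyme, was somewhat lower in both KO clones and was not called. It had 67 and 99 counts in KO clones 1 and 5, against 103 and 150 in WT A and B, or 23.1 ± 3.57 CPM in KO and 29.3 ± 1.89 CPM in WT (SD, n = 2 each). The groups did not overlap, with both KO libraries below both WT libraries. Its KO over WT log2 fold change was -0.34 (95% interval -0.97 to 0.29, edgeR adjusted p = 0.602), so a rise beyond 1.23-fold lies outside the interval and a fall to 0.510 of the WT level lies inside it. The gene is on chromosome 11, from 57551656 to 57568284.

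HERC5, the ligase, overlapped between the groups. Its counts were 45 and 32 in KO clones 1 and 5 and 40 and 78 in WT A and B. KO clone 1 stood at 13.8 CPM, between the WT libraries at 11.9 and 14.5 CPM, and KO clone 5 was the lowest at 8.28 CPM. The log2 fold change was -0.28 (95% interval -1.02 to 0.46, edgeR adjusted p = 0.730) and turned to 0.05 without KO clone 5. Its neighbour and close relative HERC6, which takes the ligase role for ISG15 in mice, had 14 and 15 counts in KO and 16 and 28 in WT, with a log2 fold change of -0.30 (SE 0.41). HERC5 outnumbered HERC6 in every library, by 3.21 and 2.13 counts to 1 in KO clones 1 and 5 and by 2.50 and 2.79 in WT A and B.

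USP18, the protease that removes ISG15, also overlapped between the groups. It had 41 and 67 counts in KO clones 1 and 5, against 70 and 78 in WT A and B. In CPM KO clone 1 was the lowest at 12.6 and WT A the highest at 20.8, with KO clone 5 at 17.3 and WT B at 14.5 between them. Its KO over WT log2 fold change was -0.22 (95% interval -0.92 to 0.48, edgeR adjusted p = 0.783) and turned to 0.05 without WT A. Part of the USP18 transcript has a near-identical copy on chromosome 22: 50.2% of its canonical transcript aligned to the USP41 pseudogene at 98.3% identity. USP41 was listed at 0 counts in all 4 libraries, and reads could have been split or dropped between the copies, so the USP18 level is uncertain. None of the other 9 genes had a second place on hg38 at 98% identity or above over at least 50% of its canonical transcript.

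**Figure D2:**
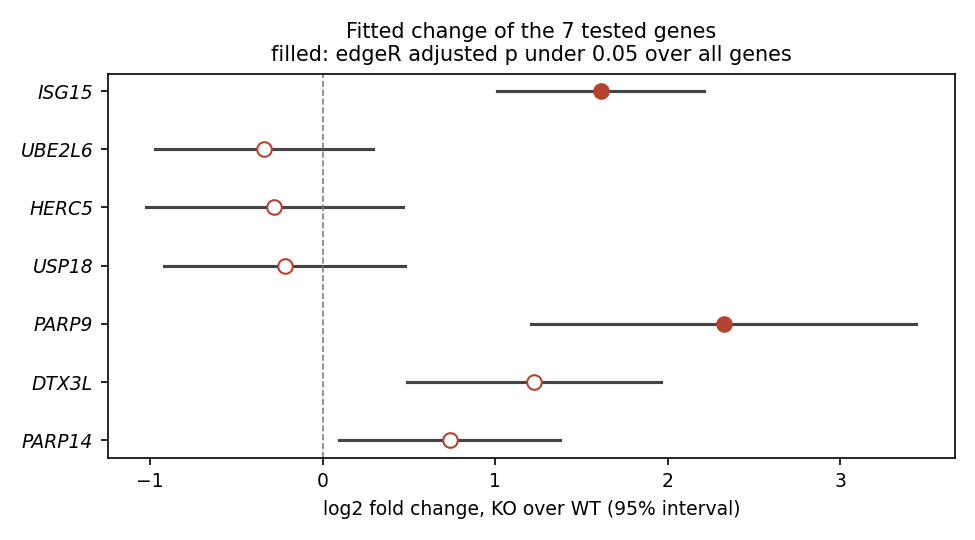
Log2 fold change of KO over WT for the 7 tested genes (points) with the 95% interval of the edgeR fit (lines); filled points have an adjusted p under 0.05 over all 10505 genes. The intervals of the ISG15 enzymes UBE2L6, HERC5 and USP18 span 0 and end below the lower bound of ISG15, 1.01.

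The count of ISG15 relative to its enzymes within a library needs no scaling between libraries. For each UBE2L6 count there were 8.25 ISG15 counts in KO clone 1 (95% exact counting interval 6.40 to 10.8) and 7.80 in KO clone 5 (6.32 to 9.71). In WT A there were 2.23 (1.76 to 2.85) and in WT B 1.89 (1.54 to 2.32). The intervals of both KO ratios lay above those of both WT ratios, and they cover counting error only. For each USP18 count there were 13.5 and 11.5 ISG15 counts in KO clones 1 and 5, against 3.29 and 3.63 in WT A and B. For each HERC5 count there were 12.3 and 24.1 in KO clones 1 and 5, against 5.75 and 3.63 in WT A and B. Against each of these 3 enzymes ISG15 stood higher in both KO clones than in both WT libraries. ISG15 was picked with its counts known and none of these enzymes was called. The ratios therefore restate the ISG15 difference and do not test it.

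**Figure D3:**
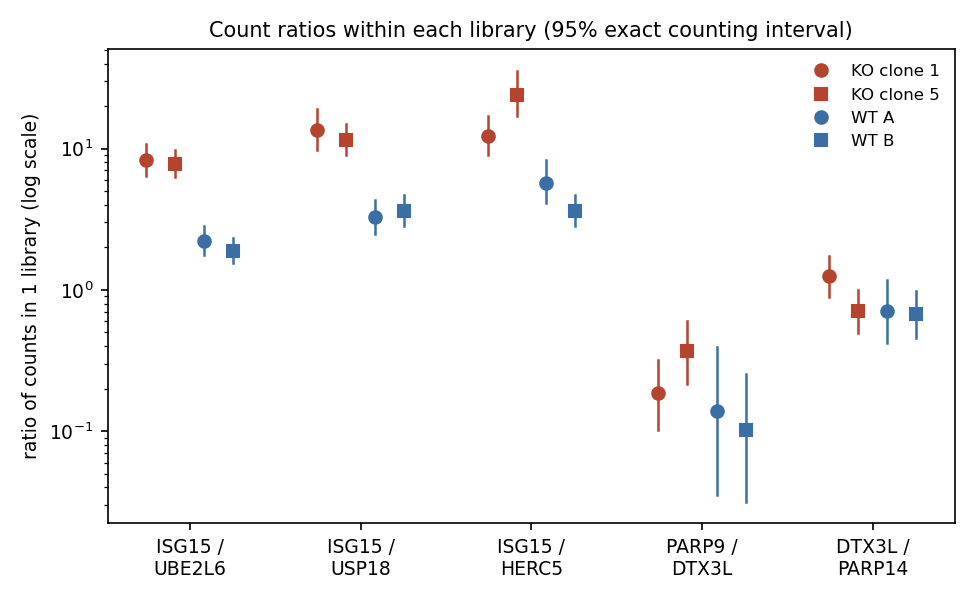
Ratios of the counts of 2 genes within each library (log axis) with 95% exact counting intervals, KO libraries left of WT libraries for each pair. The 3 ISG15 ratios are higher in both KO clones than in both WT libraries, while the DTX3L to PARP14 ratio overlaps between the groups.

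PARP9 was called higher on very few reads. KO clone 1 held 16 counts and KO clone 5 held 22, against 4 in WT A and 5 in WT B. This is 5.30 ± 0.552 CPM in KO and 1.06 ± 0.182 CPM in WT (SD, n = 2 each), with no overlap, and a 5.01-fold difference with a 95% interval of 2.31 to 10.9. The log2 fold change was 2.32 ± 0.52 SE (edgeR adjusted p = 0.0345). PARP9 reached the filter on low counts, 2.65 CPM before scaling in 2 libraries, only through the KO libraries, so a gene this low in WT could enter the test only by being higher in KO. Of the 687 tested genes that reached the filter in both KO libraries and not in both WT libraries, 6.84% were called higher. The call of PARP9 ended without WT B (edgeR adjusted p = 0.180), without KO clone 1 (0.135) and without KO clone 5 (0.130), with no scaling factor (0.0860) and with limma-voom (0.0634), and DESeq2 gave no adjusted p for it.

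DTX3L, the ubiquitin ligase partner of PARP9, was higher in both KO clones and did not pass over all genes. It had 86 and 60 counts in KO clones 1 and 5, against 29 and 49 in WT A and B. In CPM these were 26.4 and 15.5 in the KO clones, against 8.63 and 9.14 in WT A and B. The WT libraries lay close together and the KO clones far apart, KO clone 1 highest. Its KO over WT log2 fold change was 1.22 (SE 0.34, 95% interval 0.49 to 1.96, edgeR adjusted p = 0.0909), 1.56 without KO clone 5, where it passed (edgeR adjusted p = 0.00570), and 0.80 without KO clone 1 (0.390).

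PARP9 and DTX3L overlap at their starts on opposite strands. PARP9 spans 122527924 to 122564577 and DTX3L 122564338 to 122575203 of chromosome 3, with 139 exonic bases in common, or 2.41% of those of DTX3L and 1.56% of those of PARP9. The sources used here do not say whether reads were counted by strand, so reads that reach the shared bases could be given to either gene or to none. Summed over both genes, a comparison added after seeing the data, there were 102 and 82 counts in KO clones 1 and 5, against 33 and 54 in WT A and B. The log2 fold change of the sum was 1.39 ± 0.32 SE (edgeR adjusted p = 0.0381). Both genes were picked with these counts known, so this value describes the sum and does not test it. The sum was not fitted under the other settings. PARP9 remained the minor partner by reads, with 0.186 and 0.367 PARP9 counts per DTX3L count in KO clones 1 and 5 and 0.138 and 0.102 in WT A and B. The 95% exact counting intervals of these ratios overlapped between each KO clone and each WT library. They were 0.102 to 0.320 in KO clone 1 and 0.214 to 0.607 in KO clone 5. In WT they were 0.0352 to 0.393 in A and 0.0317 to 0.255 in B.

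PARP14, which lies 105.6 kb beyond DTX3L, was 1.67-fold higher and was not called. It had 69 and 85 counts in KO clones 1 and 5, against 41 and 73 in WT A and B. Its level was 21.6 ± 0.573 CPM in KO and 12.9 ± 1.00 CPM in WT (SD, n = 2 each), without overlap. The log2 fold change was 0.74 (SE 0.30, 95% interval 0.10 to 1.38), the unadjusted p 0.0271 and the edgeR adjusted p 0.236. PARP15, the gene between DTX3L and PARP14, was listed at 0 counts in all 4 libraries.

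PARP10 and PARP12 had too few reads to be tested in the filtered fit. PARP10, on chromosome 8, had 1 and 2 counts in KO clones 1 and 5 and 2 and 1 in WT A and B. PARP12, on chromosome 7 from 140023749 to 140062951, had 4 and 7 counts in KO clones 1 and 5 and 6 and 7 in WT A and B. Pooled, PARP12 was at 1.54 CPM in KO (95% exact Poisson interval 0.771 to 2.76) and 1.49 CPM in WT (0.793 to 2.55). With no count filter the log2 fold change was 0.22 (SE 1.49) for PARP10 and 0.01 (SE 0.72) for PARP12, and neither was called.

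Counted together, 7 of the 10 genes could be tested, 2 were called higher, ISG15 and PARP9, and 0 lower. Over all 10505 tested genes 1.58% were called higher and 0.609% lower at an edgeR adjusted p under 0.05. Both KO libraries lay above both WT libraries for 4 of the 7 tested genes, against 25.0% of all tested genes, and below them for 1, UBE2L6, against 22.8%. At an unadjusted p under 0.05, 4 of the 7 were higher, against 10.7% of all tested genes, and 0 lower, against 5.66%. Since the genes were picked with this comparison known, nothing is read from these shares.

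Other settings left ISG15 called more often than PARP9. With RLE scaling 2 of the genes were higher, against 1.74% of all genes (0.714% lower), and with upper-quartile scaling 2, against 1.53% (0.704% lower). With no scaling factor 1 was higher, against 0.190% (0.105% lower), and with limma-voom 1, against 1.18% (0.390% lower). DESeq2 called 1 higher, against 1.80% of the genes it gave an adjusted p (0.392% lower), and a minimum mean of 50 counts left 1, against 1.28% (0.216% lower). With no count filter 3 were higher, DTX3L among them, against 1.45% (0.691% lower). Without WT A 2 were higher, against 0.783% (1.34% lower), and without WT B 0, against 1.39% (0.380% lower). Without KO clone 1 there was 1, against 1.22% (0.481% lower), and without KO clone 5 there were 2, ISG15 and DTX3L, against 5.99% (3.21% lower). Under none of these settings was any of the 10 genes called lower.

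Per kb of canonical transcript, ISG15 was the most abundant of the 10 in both groups, at 290 CPM per kb in KO and 95.1 in WT. UBE2L6 came next, with 18.9 CPM per kb in KO and 24.0 in WT, then USP18 with 8.05 in KO and 9.52 in WT. DTX3L stood at 3.63 CPM per kb in KO and 1.54 in WT, and HERC5 at 3.15 in KO and 3.77 in WT. PARP14 stood at 2.81 CPM per kb in KO and 1.68 in WT, and PARP9 at 1.74 in KO and 0.349 in WT. PARP12, UBA7 and PARP10 were at or below 0.503 CPM per kb in KO and 0.511 in WT. Per kb, DTX3L, HERC5 and PARP14 had another order in each group: they lay close together in KO, while in WT HERC5 stood above DTX3L and PARP14. Without division by length, HERC5 had 11.0 CPM in KO, against 21.0 for DTX3L and 21.6 for PARP14. In WT HERC5 had 13.2 CPM, against 8.88 for DTX3L and 12.9 for PARP14. Where a long read is counted once per transcript, division by length weights the order to short transcripts such as that of ISG15, with 637 bases.

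The ratio of KO clone 1 to KO clone 5 varied across the genes. ISG15 had 169.8 CPM in KO clone 1 and 199.8 in KO clone 5, a ratio of 0.850 (95% exact counting interval 0.761 to 0.949). DTX3L went the other way, with a ratio of 1.70 (1.21 to 2.41), as did HERC5 with 1.67 (1.04 to 2.71). For PARP14 the ratio was 0.963 (0.691 to 1.34), for PARP9 0.863 (0.424 to 1.72), for UBE2L6 0.803 (0.580 to 1.11) and for USP18 0.726 (0.480 to 1.09). Each clone has 1 library, so these ratios have no replicate check. Over all tested genes the chi-square per degree of freedom was 15.1 between the KO clones and 6.47 between WT A and B. Libraries thus differed well beyond counting error, even within WT, and the counting intervals are too narrow to show a difference particular to these genes.

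**Figure D4:**
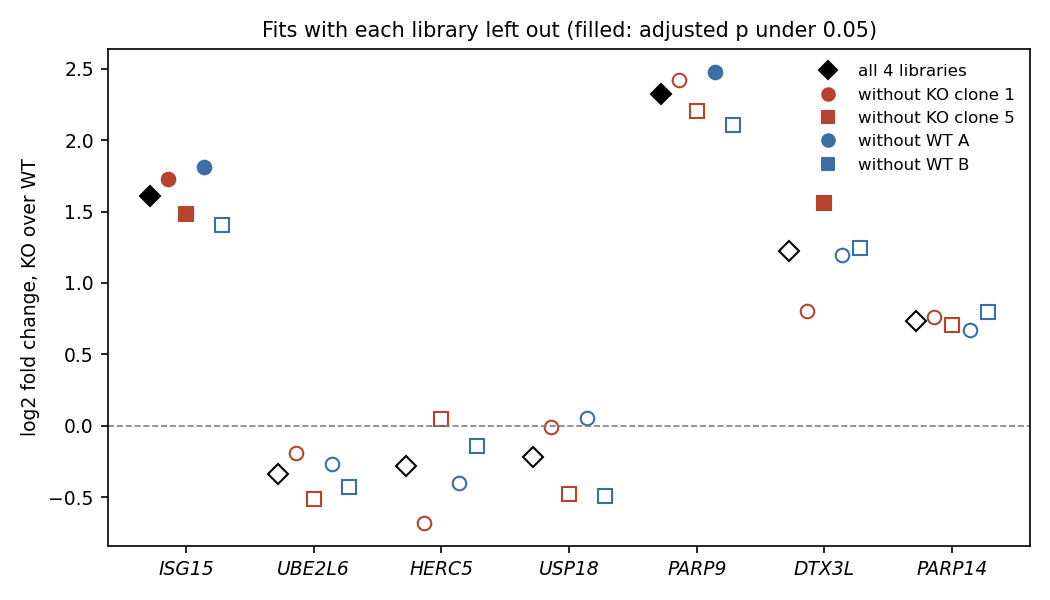
Log2 fold change of KO over WT for the 7 tested genes with all 4 libraries (black) and with each library left out (red, a KO clone; blue, a WT library); filled points have an edgeR adjusted p under 0.05. ISG15, PARP9, DTX3L and PARP14 stay above 0 in each of these fits, and HERC5 and USP18 each pass 0 once.

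Of the other genes of the ISG15 system, 0 of 7 tested were called higher or lower. Over all tested genes 1.58% were called higher and 0.609% lower, the shares to set beside this count and those of the lists below. So small a list could hold 0 calls at these shares, and nothing is read from the count. From here a log2 difference is that of KO over WT, with its SE. ARIH1, a ubiquitin ligase that can also act for ISG15, had 289 and 265 counts in KO clones 1 and 5, against 101 and 267 in WT A and B (log2 difference 0.97 ± 0.32 SE, edgeR adjusted p = 0.145). USP24, USP21 and TRIM25 had log2 fold changes of 0.72 (SE 0.34), -0.46 (SE 0.39) and 0.32 (SE 0.30). The median over the 7 genes was -0.01, against 0.00 over all tested genes.

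Among other ubiquitin-like modifiers and their activating enzymes 1 of 21 tested genes was called higher and 0 lower. That gene was UBA3, the catalytic subunit of the NEDD8-activating enzyme, with 454 and 468 counts in KO clones 1 and 5, against 145 and 334 in WT A and B. Its level was 130 ± 12.9 CPM in KO and 52.7 ± 13.5 CPM in WT (SD, n = 2 each), a log2 difference of 1.30 ± 0.29 SE (edgeR adjusted p = 0.0350). The call of UBA3 ended without WT A (1.07, edgeR adjusted p = 0.429), without WT B (1.57, 0.0890) and with no scaling factor (0.0992). UBA3 shares 143 exonic bases with an antisense RNA gene, EOGT-DT. NAE1, the other subunit of that enzyme, showed a log2 difference of 0.09 (SE 0.25) and NEDD8 itself of 0.45 (SE 0.36). UBA6, which activates ubiquitin and FAT10, had 1.26 ± 0.38 SE (edgeR adjusted p = 0.111), SAE1 of the SUMO-activating enzyme -0.50 (SE 0.28) and the autophagy modifier ATG12 0.43 (SE 0.27). UBB was listed at 0 counts in all 4 libraries, although ubiquitin genes are used by every cell, so a 0 in this table is not evidence of absence. The median of the 21 genes was 0.21.

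Interferon receptor and signalling genes held 0 calls among 13 tested. IFNGR1, a chain of the interferon gamma receptor, showed a log2 difference of 0.85 ± 0.35 SE (edgeR adjusted p = 0.240), STAT3 of -0.48 (SE 0.30) and IFNLR1 of 0.50 (SE 0.34). IRF9, a transcription factor of the interferon response, had 1 count in WT B and 0 in the other libraries, and the interferon genes IFNB1, IFNA1, IFNL1 and IFNG were listed at 0 in all 4. The median over the 13 genes was -0.00086. Among 52 further interferon-stimulated genes 19 were tested and 0 were called higher or lower, while 33 were too low to be tested. Of the 19, 13 lay below 0, with a median of -0.10, against 0.00 over all tested genes. IFIT1, which binds viral RNA, had 11 and 12 counts in KO clones 1 and 5, against 30 and 44 in WT A and B, both KO libraries below both WT libraries (log2 difference -1.39 ± 0.40 SE, edgeR adjusted p = 0.0969). EIF2AK2, the kinase PKR, had 0.66 (SE 0.28), the RNA sensor gene DDX58 0.92 (SE 0.46) and LAP3 -0.52 (SE 0.28). DDX58 reached the count filter in both KO libraries and not in both WT libraries, which favours a value above 0.

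Among 13 other PARP family genes 10 were tested and 0 were called. PARP6 showed a log2 difference of 0.89 (SE 0.35), TNKS2 of 1.04 (SE 0.42) and TIPARP of 0.95 (SE 0.39), each with an unadjusted p under 0.05 and an edgeR adjusted p of 0.223, 0.236 and 0.241. PARP3 had -0.51 (SE 0.51), and the median of the 10 was 0.16. Of the genes that remove or read ADP-ribose and of the other DTX ligases 0 of 9 tested were called, with OARD1, a hydrolase, at 0.58 (SE 0.30), the ADP-ribose hydrolase PARG at -0.48 (SE 0.32), DTX4 at 0.34 (SE 0.30) and the macroH2A gene H2AFY at 0.37 (SE 0.33). The median of the 9 was 0.24.

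Of the genes next to PARP9 and DTX3L 0 of 7 tested were called, and their fold changes went both ways. KPNA1, an importin, showed a log2 difference of 1.00 ± 0.33 SE (edgeR adjusted p = 0.146) and DIRC2 of 0.93 (SE 0.43). EAF2, an elongation factor partner, had -1.26 ± 0.38 SE (edgeR adjusted p = 0.116) and FAM162A -0.44 (SE 0.25). DIRC2 reached the count filter in both KO libraries and not in both WT libraries, which favours a value above 0. Next to ISG15 0 of 9 tested genes were called. B3GALT6, a galactosyltransferase, had 0.99 ± 0.29 SE (edgeR adjusted p = 0.105), C1orf159 -0.57 (SE 0.44), CPTP -0.51 (SE 0.47) and KLHL17 0.40 (SE 0.41). HES4, the adjacent gene, had 93 and 238 counts in KO clones 1 and 5, against 161 and 220 in WT A and B, and overlapped between the groups. The medians were -0.10 over the neighbours of PARP9 and DTX3L and 0.03 over those of ISG15.

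**Figure D5:**
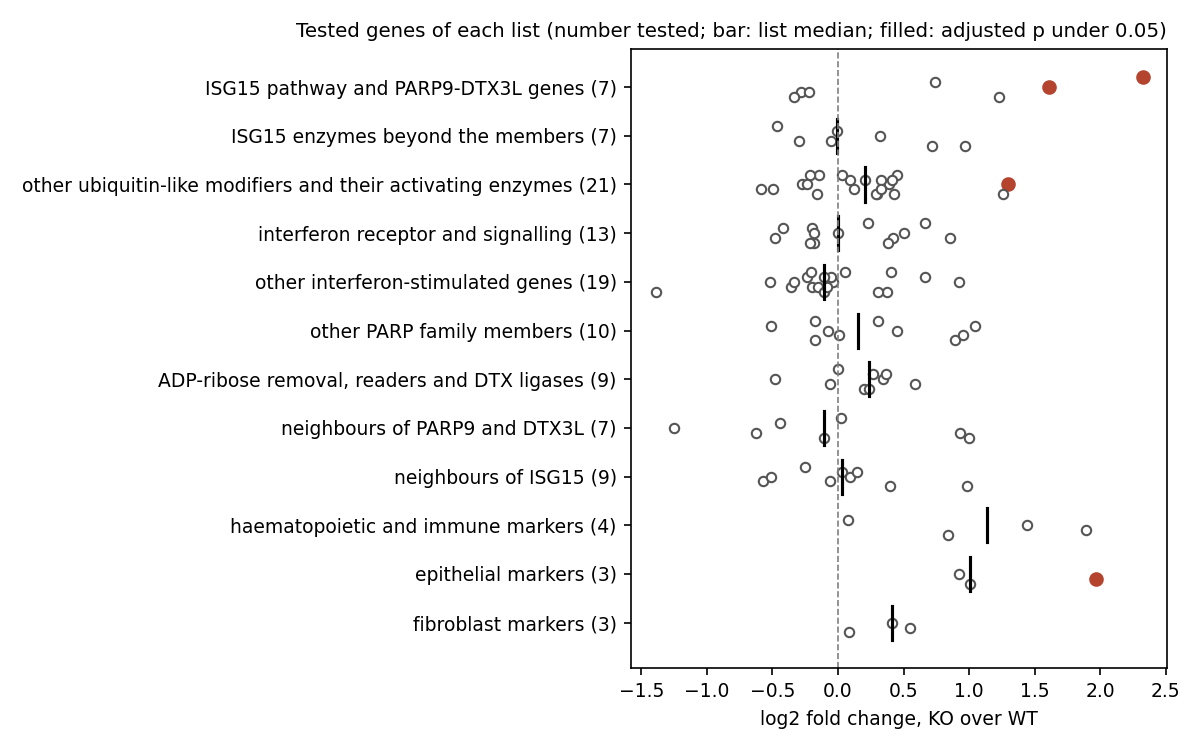
Log2 fold change of KO over WT (horizontal axis) for every tested gene of each list, with the number tested in brackets, the list median as a bar (none for the top row) and filled points for an edgeR adjusted p under 0.05. The calls outside the top row are UBA3 and KRT8, and the other interferon-stimulated genes centre near 0.

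Markers of other cell types moved with the groups in part. Summed haematopoietic and immune markers were at 40.9 to 49.4 CPM in KO and 21.4 to 25.4 CPM in WT, with 0 of 4 tested genes called. MYB showed a log2 difference of 1.89 (SE 0.54), RUNX1 of 1.44 (SE 0.44), GATA2 of 0.84 (SE 0.30) and TAL1 of 0.08 (SE 0.43). As for PARP9, MYB and RUNX1 reached the count filter only through the KO libraries. Genes as low in WT as MYB and RUNX1 could enter the test only by being higher in KO. KIT had 0 counts in both KO clones, against 1 and 4 in WT A and B. Summed epithelial markers were at 58.3 to 95.2 CPM in KO and 25.0 to 28.3 CPM in WT, where 1 of 3 tested genes was called, KRT8 (log2 difference 1.97 ± 0.36 SE, edgeR adjusted p = 0.0143, and 0.0651 with no scaling factor), while KRT7 was at 0 in all 4 libraries and CLDN4 had 1 count. KRT8 made up most of the sum in KO, with 39.6 and 72.2 CPM in KO clones 1 and 5, against 11.30 and 16.97 CPM in WT A and B. EPCAM, too low to be tested, lay the other way, with 4 and 5 counts in KO clones 1 and 5, against 9 and 14 in WT A and B. KRT8 and KRT18 share 525 exonic bases on opposite strands. KRT18 had 1.01 (SE 0.40) and SPINT1 0.93 (SE 0.39). Summed fibroblast markers were at 73.7 to 79.5 CPM in KO and 44.03 to 67.7 CPM in WT, with COL1A2, COL3A1, DCN and LUM at 0 in all 4 libraries. Of the fibroblast markers 0 of 3 tested were called, PDGFRA with 0.55 (SE 0.32), VIM with 0.41 (SE 0.30) and COL1A1 with 0.09 (SE 0.48). The part of these markers in the ISG15 and PARP9 differences was not tested.

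The genes whose pattern over the 4 libraries was nearest to that of ISG15, by Euclidean distance between centred log2 CPM over the 8492 tested genes whose mean reached 20 counts, were ZNF655 (distance 0.13), SLC12A3 (0.21) and RAB6A (0.21). ZNF655 encodes a zinc finger protein, SLC12A3 a sodium chloride cotransporter and RAB6A a Golgi GTPase. ZNF655 had 41 and 54 counts in KO clones 1 and 5, against 14 and 18 in WT A and B. Nearest to PARP9 among 10504 genes were NHSL1 (0.19), ZNF655 (0.20) and FAM122A (0.20), while ISG15 was at 0.30 and DTX3L at 1.02. With 4 libraries these distances describe little beyond the split between the groups and the order of the clones.

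The authors' deposited table lists 6 of the 10 genes, and which libraries entered it was not stated. In the authors' deposited table ISG15 has a log2 fold change of 1.60 (SE 0.30, adjusted p = 3.68e-05) and ranks 17 of 6479 genes by p, and DTX3L has 1.23 (SE 0.52, adjusted p = 0.278). PARP14 has 0.73 (SE 0.46), UBE2L6 -0.35 (SE 0.41), HERC5 -0.27 (SE 0.59) and USP18 -0.24 (SE 0.50) in the authors' deposited table. UBA7, PARP9, PARP10 and PARP12 are not among its genes, whose lowest mean signal is 33.3.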

How the data were processed

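Per the labels' protocols, 4 HAP1 cDNA libraries were prepared with PCR from 50 ng of total RNA each; the series title names the Oxford Nanopore MinION. The authors deposited whole-number counts per gene, not normalised. The submitters' processing notes name hg38, minimap2, SAMtools, Subread, DESeq and DESeq2 1.22.2, with no settings; the sources used here give neither annotation nor strand setting. The authors' deposited table also gives a mean normalised signal, log2 fold changes with errors, a Wald score and p-values.

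KO was set against WT with edgeR 4.0.16 (R 4.3.3): genes kept by filterByExpr (at least 10 counts in a library of median size, 15 in total), TMM scaling, glmQLFit with robust estimation, a two-sided F test and Benjamini-Hochberg adjustment over 10505 genes, called at 0.05. SE was taken as |log2 fold change| divided by the root of F, and 95% intervals use the test's degrees of freedom. CPM uses TMM-scaled library sizes. PCR copies are not independent molecules, so counting intervals cover counting error only. WT columns carry no replicate number and are called A and B; 0 count columns were left unused. Positions are from GENCODE 44, and copies were sought with minimap2. The 11 lists held 200 entries, 195 matched by symbol and 5 by an older one. From each list up to 4 tested genes with the lowest p, and any that passed, are named. A gene that this rule names is not reported here. Genes and lists were chosen with earlier results of these data known; HERC6, EPCAM, KIT, NAE1, NEDD8, IRF9, HES4, PARP15, USP41 and genes at 0 or 1 count were named after their values were seen. Alternatives were RLE, upper-quartile or no scaling, limma-voom (limma 3.58.1), a minimum mean of 50 counts, no count filter, DESeq2 1.42.0 and each library left out.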

Additional observations from a re-analysis of the deposited data

How the results depend on the processing

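With no scaling factor 20 genes were higher and 11 lower, with no count filter 385 and 183, and at a minimum mean of 50 counts 71 and 12, against 166 and 64. Lower calls numbered 34 with DESeq2 and 41 with limma-voom. With each library left out in turn, 91 to 674 genes were higher and 42 to 361 lower, 0 to 2 of the 10 genes were higher, and 1 to 9 genes of the other lists were called. Of the 10 genes 1, ISG15, was called with no scaling factor, DESeq2, limma-voom and a minimum mean of 50 counts, which PARP9 did not reach. Of the genes of the other lists 0 were called with no scaling factor and 4 with no count filter, against 2. With no count filter DTX3L passed as well (edgeR adjusted p = 0.0334). The cause was not tested, apart from the smaller sets of genes and libraries. The labels pair no KO library with a WT library, so no paired analysis was run. Over these settings the 7 tested of the 10 genes kept direction and call in 64 comparisons, lost the call in 6, gained it in 2 and turned in 2. With a library left out, log2 fold changes ran from -0.682 to 0.047 for HERC5, -0.495 to 0.051 for USP18, -0.469 to 0.163 for MATR3, -1.02 to 0.032 for PARP3, -0.090 to 0.718 for H2AFY, -1.76 to 0.039 for C1orf159, -1.28 to 0.018 for CPTP, -0.012 to 0.695 for KLHL17, -0.092 to 0.246 for TAL1 and -0.537 to 0.556 for COL1A1, which was -0.013 with limma-voom. Depth limits UBA7, PARP10 and PARP12.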

Other observations

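In the authors' deposited table the size of the Wald score equals that of the log2 fold change over its error in all 6479 genes, within 1e-06. The sign of the score is opposite to that of the fold change in 6478 of them, and ISG15 is the 1 gene where the signs match. For the 1908 genes with a log2 fold change beyond 0.5 in the authors' deposited table, its sign was that of KO over WT in the counts in all 1908, so the fold change column was read as KO over WT. The score of ISG15 there is 5.33 and that of DTX3L -2.36, although both genes have a higher CPM in KO.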
